A study of Mus musculus with 9 samples.

Results

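Smooth muscle cells shorten when myosin pulls on actin filaments that are anchored in dense bodies and tied to intermediate filaments. The 10 genes examined here encode parts of that apparatus: the actins Acta2 and Actg2, the myosin heavy chain Myh11 and its activating kinase Mylk, the thin filament proteins Tagln, Cnn1 and Lmod1, and the anchoring proteins Des, Smtn and Synpo2. They were chosen by name, and are 10 of 21853 protein-coding genes. Their loci, each the gene body with 25 kb on either side, held 681 of the 848955 peaks in 8 lists, of which 514 were in the 6 replicate lists and 167 in the 2 pooled lists. Coordinates are those of GRCm38 and gene models those of GENCODE M21. A peak within 1 kb of a start of a protein-coding transcript was called a promoter peak, one elsewhere over the gene body intragenic, and any other flanking.

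The cells were primary oviductal muscle cells from WT mice aged 8 to 12 weeks on D2 of pregnancy, when the oviduct carries the embryos toward the uterus. Oviducts were digested with enzymes, filtered and plated for some hours before fixation, with no sort for a cell type stated. ChIC-seq, in which an antibody directs a nuclease to cut chromatin, was performed for H3K27ac and H3K4me1 with 3 samples each, and 3 IgG samples served as controls for the peak calls. No label says whether the samples came from separate animals, so the spread between lists may be technical. H3K27ac, an acetyl mark on histone H3, is found at active promoters and enhancers. H3K4me1, a methyl mark on the same histone, is found at enhancers and beside active promoters. In smooth muscle, serum response factor (SRF) with its partner myocardin activates contractile genes through CArG boxes, short sites with an A/T-rich core.

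Treatment libraries held 40551842 to 42040809 fragments for H3K27ac and 41891318 to 78891920 for H3K4me1, and IgG libraries only 3110985 to 3713369. Peak height is given as pileup over the mean pileup of the genome, and the lowest peaks of the replicate lists stood at 4.03 to 4.94 times that mean. The replicate lists covered 3.34% to 5.30% of the genome. The calls were permissive, with a p-value cutoff of 0.1 for weak regions.

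Promoter peaks in every list were found at some of the genes. Acta2, Des, Smtn and Synpo2 had promoter peaks of both marks in all 6 replicate lists, which is 4 of 10 genes beside 24.3% of all protein-coding genes. H3K27ac was found in all 3 replicates at the same 4 genes, beside 45.9% of all genes. H3K4me1 was found in all 3 replicates at 5 genes, the fifth being Tagln, beside 27.9% of all genes. Each of the 10 genes had a promoter peak in at least 1 of the 6 lists, so 0 of 10 had none, beside 32.8% of all genes. The share of contractile genes with H3K27ac, 40.0%, thus lay near that of all genes, and the shares with H3K4me1, 50.0%, and with both marks, 40.0%, lay above it. No test was made of these shares, and they moved with the window. Within 500 bp of a start, 2 of 10 genes (Acta2 and Smtn) had H3K4me1 in all 3 replicates, beside 18.0% of all genes, and the same 2 had both marks in all 6 lists, beside 15.1%. At the 5′ most start alone, 3 genes (Acta2, Tagln and Des) had H3K4me1, beside 21.3%, and 2 (Acta2 and Des) had both marks, beside 18.0%. When peaks needed a −log10 p-value of at least 1.3, 1 gene (Smtn) had an H3K27ac promoter peak in all 3 lists, beside 30.2% of all genes. Under that filter 0 had an H3K4me1 promoter peak in all 3 lists, beside 5.03%, and 0 had both marks, beside 3.98%.

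**Figure D1:**
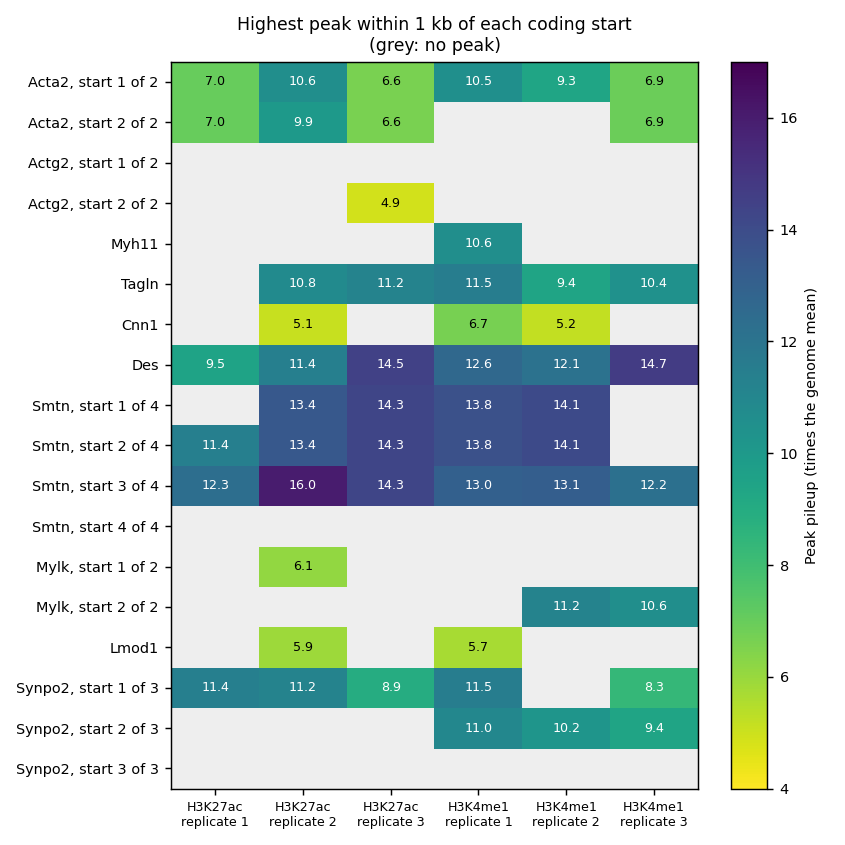
Pileup of the highest peak within 1 kb of each coding start or group of neighbouring starts (rows), as times the genome mean, in the 6 replicate lists (columns), with grey cells where there is no peak. Des was marked in all 6 lists, at 9.46 to 14.7 times the genome mean, and Actg2 in 1 of 6.

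The 2 smooth muscle actins differed in their promoter peaks. Acta2 (chr19:34241090-34255590, minus strand) encodes the α-actin that is a widely used marker of smooth muscle. At its 5′ start, H3K27ac peaks stood at 7.03, 10.6 and 6.62 times the genome mean in replicates 1, 2 and 3. H3K4me1 peaks there stood at 10.5, 9.34 and 6.93 times the genome mean. The heights of the 2 marks overlapped. H3K27ac peaks of 5187 and 4451 bp lay over the start in replicates 1 and 3, and a shorter one of 780 bp in replicate 2. Actg2 (chr6:83512905-83536265, minus strand), which encodes the γ-actin of visceral smooth muscle, had no peak at its 5′ start in any list. A single H3K27ac peak of 390 bp, at 4.88 times the genome mean in replicate 3, lay over its internal starts. No H3K4me1 list, and neither pooled list, had an Actg2 promoter peak.

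At the annotated starts of the motor and its kinase, peaks were called in only some of the replicate lists. Myh11 (chr16:14194535-14291372, minus strand), the smooth muscle myosin heavy chain, had no H3K27ac promoter peak in any replicate list, and 1 H3K4me1 peak, at 10.6 times the genome mean in replicate 1. The pooled lists each held a peak there, upstream of the start, of 437 bp for H3K27ac and 1274 bp for H3K4me1. Mylk (chr16:34745210-35002420, plus strand) encodes myosin light chain kinase, and had 2 annotated coding starts. The first is that of a long transcript of the kinase. The second, near the 3′ end, is that of telokin, a short protein of the same reading frame. Any other start inside the gene was not examined. At the long start, H3K27ac was called in replicate 2 only, at 6.09 times the genome mean, and H3K4me1 in no replicate list. At the telokin start, H3K4me1 was called in replicates 2 and 3, at 11.2 and 10.6 times the genome mean, and H3K27ac in no list.

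The thin filament genes were uneven. Tagln (chr9:45929619-45936058, minus strand), which encodes the actin-binding protein transgelin, had H3K27ac promoter peaks in replicates 2 and 3, at 10.8 and 11.2 times the genome mean. In replicate 1 it had no promoter peak, and an intragenic peak at 8.89. Its H3K4me1 promoter peaks stood at 11.5, 9.39 and 10.4 times the genome mean in replicates 1 to 3. Cnn1 (chr9:22099216-22109630, plus strand), which encodes calponin, an actin-binding inhibitor of myosin, had an H3K27ac promoter peak in replicate 2 at 5.07 times the genome mean. Its H3K4me1 promoter peaks stood at 6.68 and 5.19 times the genome mean in replicates 1 and 2. Lmod1 (chr1:135324807-135368065, plus strand), which encodes the actin nucleator leiomodin, had 1 promoter peak of each mark, at 5.91 times the genome mean for H3K27ac in replicate 2 and 5.70 for H3K4me1 in replicate 1. The pooled lists held no promoter peak at Cnn1 or Lmod1. Tagln peaks were the higher of these, while Cnn1 and Lmod1 peaks stood between 5.07 and 6.68.

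The anchoring genes Des, Smtn and Synpo2 had promoter peaks of both marks in every list. Des (chr1:75360329-75368579, plus strand), which encodes the intermediate filament protein desmin, had H3K27ac promoter peaks at 9.46, 11.4 and 14.5 times the genome mean and H3K4me1 peaks at 12.6, 12.1 and 14.7. None of the replicate peaks covered the Des start itself. H3K27ac peaks were centred 0.297, 0.982 and 0.392 kb inside the gene in replicates 1 to 3, with a further promoter peak upstream in replicate 2. H3K27ac replicate 1 also had upstream peaks outside the 1 kb window, at 8.55 and 8.40 times the genome mean. H3K4me1 peaks were centred upstream, at −1.59, −1.81 and −1.12 kb. H3K27ac covered a mean of 8.02% of the Des gene body and H3K4me1 0% in all 3 lists, although the pooled H3K4me1 list held an intragenic peak of 295 bp. This is the reverse of the whole Des locus, where H3K4me1 covered 7.63% and H3K27ac 3.73%, and the lists overlapped. The difference over the gene body gave an exact permutation p of 0.100 (n = 3 lists per mark), the smallest this design allows.

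Smtn (chr11:3517523-3540612, minus strand), which encodes smoothelin, an actin-associated protein of contractile smooth muscle, was marked at 3 of its 4 groups of starts. At its second group, H3K27ac peaks covered the start in all 3 replicates, at 11.4, 13.4 and 14.3 times the genome mean. H3K4me1 was called there in replicates 1 and 2, at 13.8 and 14.1 times the genome mean, and not in replicate 3. At the third group, both marks were called in every list, at 12.3, 16.0 and 14.3 times the genome mean for H3K27ac and 13.0, 13.1 and 12.2 for H3K4me1. The start farthest inside the gene had no peak.

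Synpo2 (chr3:123076519-123236149, minus strand) encodes synaptopodin 2, an actin-bundling protein of dense bodies and Z-discs. Its 5′ start was covered by H3K27ac in all 3 replicates, by peaks at 11.4, 11.2 and 7.58 times the genome mean, and by H3K4me1 in replicates 1 and 3, at 11.5 and 8.32. Near the internal start at chr3:123117052 the pattern was the other way round. H3K4me1 was called there in all 3 replicates, at 11.0, 10.2 and 9.43 times the genome mean, and H3K27ac in none. The second internal group had no peak of either mark.

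Away from the starts, the number of peaks differed widely between the loci. The 10 loci held 74, 79 and 75 H3K27ac peaks and 109, 90 and 87 H3K4me1 peaks in replicates 1 to 3. By class, the mean per H3K27ac list was 7.67 ± 3.06 promoter, 37.3 ± 2.31 intragenic and 31.0 ± 2.65 flanking peaks (SD, n = 3). For H3K4me1 it was 9.00 ± 1.00, 50.3 ± 7.77 and 36.0 ± 3.61 (SD, n = 3). Synpo2 alone held 214 of the 514 replicate peaks, so the sums speak mostly of Synpo2 and of the long Mylk gene.

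**Figure D2:**
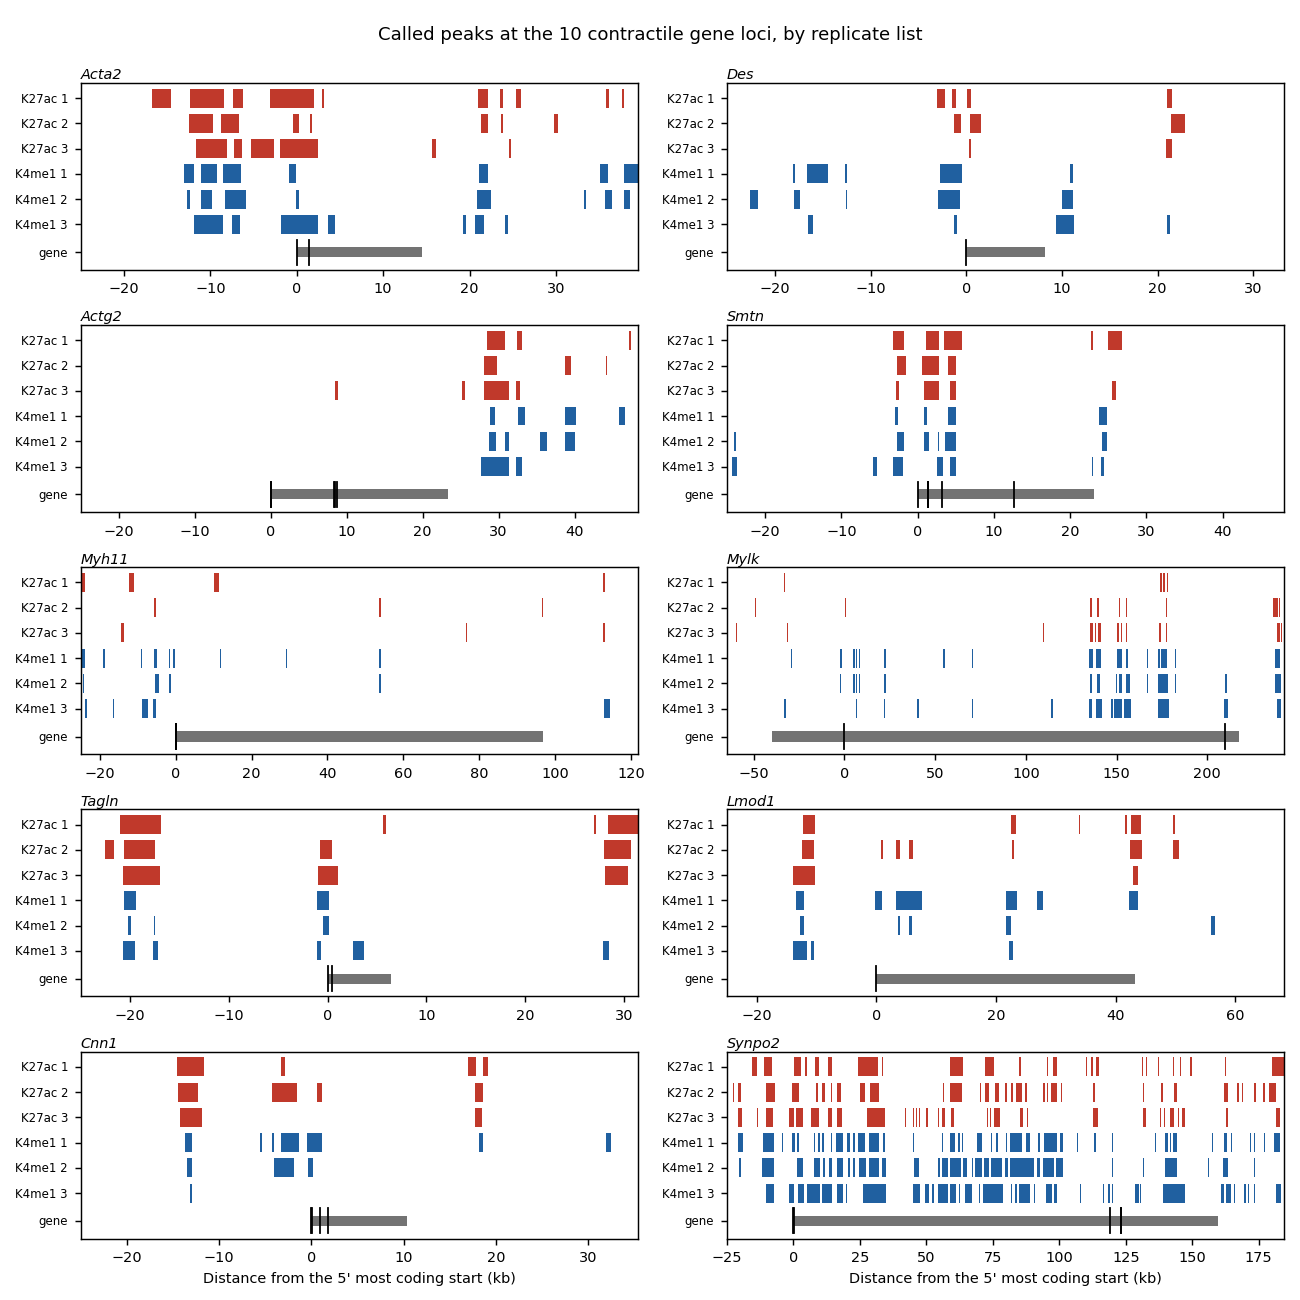
Called peaks of the 3 H3K27ac lists (red) and the 3 H3K4me1 lists (blue) along each locus, by distance in kb from the 5′ most coding start in the direction of transcription, with the gene body as a grey bar and coding starts as black ticks. Most of the 214 replicate peaks of Synpo2 lie along its gene body, and those of Mylk gather in the 3′ portion of the gene.

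By the mean of 3 lists, the share of a locus that was covered by peaks was highest at Synpo2 and Acta2 for each mark. Peaks covered 20.1%, 20.6% and 19.6% of the Synpo2 locus for H3K27ac in replicates 1 to 3, and 25.1%, 32.4% and 36.1% for H3K4me1. These means ranked at percentiles 93.6 and 98.5 among the loci of all protein-coding genes. For Acta2 the shares were 23.8%, 11.3% and 19.2% for H3K27ac and 14.6%, 12.3% and 17.3% for H3K4me1, at percentiles 91.3 and 87.5. The H3K27ac shares of Tagln, 13.6%, 14.1% and 14.4% at percentile 84.7, overlapped those of Acta2 and were higher in replicate 2. At the low end, peaks covered 2.79%, 0.617% and 1.12% of the Myh11 locus for H3K27ac and 3.16%, 1.50% and 3.33% for H3K4me1, at percentiles 29.4 and 41.0. Averaged over the 10 loci, 8.55% ± 0.746 was covered for H3K27ac and 9.09% ± 0.619 for H3K4me1 (SD, n = 3 lists). Without Synpo2, the means of the other 9 loci were 7.27% ± 0.823 and 6.63% ± 0.959 (SD, n = 3 lists). Over the loci of all protein-coding genes the means were 6.99% ± 0.872 and 6.49% ± 0.308 (SD, n = 3 lists). By mean share, 7 of the 10 loci lay above the median gene for H3K27ac and 9 for H3K4me1.

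The balance of the marks was compared at each locus with an exact permutation test, two-sided. With 3 lists a mark there are 20 assignments, and p cannot be smaller than 0.100. H3K4me1 covered more than H3K27ac without overlap of the lists at Synpo2 and Mylk, 2 of 10 loci beside 12.0% of all genes. At Synpo2 the means were 31.2% ± 5.56 for H3K4me1 and 20.1% ± 0.494 for H3K27ac (SD, n = 3, exact p = 0.100). At Mylk, H3K4me1 covered 7.23%, 6.89% and 9.36% and H3K27ac 1.32%, 2.23% and 3.07% (exact p = 0.100). H3K27ac covered more without overlap at Tagln, 1 of 10 loci beside 17.2% of all genes. The Tagln shares were 13.6%, 14.1% and 14.4% for H3K27ac and 4.22%, 2.13% and 6.70% for H3K4me1 (exact p = 0.100). In the other 7 loci the lists of the marks overlapped, and the exact p ran from 0.200 to 1.00. None of these p-values could pass 0.05.

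**Figure D3:**
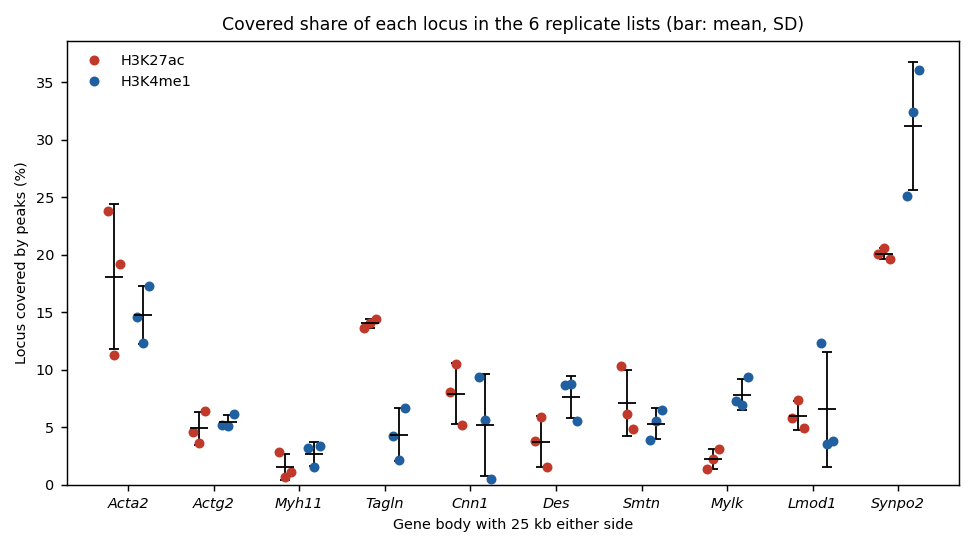
Percent of each locus covered by peaks in each replicate list (points), for H3K27ac (red) and H3K4me1 (blue), with the mean and SD of 3 lists (black). Points of the marks do not overlap at Tagln, where H3K27ac is higher, or at Mylk and Synpo2, where H3K4me1 is higher.

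Depth and control library differed between the marks, and the values that bear on them are given here for the 3 loci. The part of depth in the differences was not tested. H3K4me1 replicate 1, the shallowest of its mark, lay within the depth range of the H3K27ac libraries, and its shares of 25.1% at Synpo2, 7.23% at Mylk and 4.22% at Tagln lay outside the H3K27ac ranges. Among lists called against IgG replicate 2, H3K27ac minus H3K4me1 was −8.21 percentage points at Synpo2, −4.83 at Mylk and 10.96 at Tagln. Among those called against IgG replicate 3 the differences were −16.49, −6.30 and 7.68. When each share was divided by the percent of the genome that its list covered, the lists still did not overlap at Mylk and Tagln (exact p = 0.100 for each), but they overlapped at Synpo2, where the difference was −1.33 times the genome share (exact p = 0.300).

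At Tagln, most of the H3K27ac sequence lay over promoters of neighbouring genes. H3K27ac peaks of 4135, 3104 and 3710 bp lay over the promoter of Sidt2, upstream of Tagln, at 16.6, 20.5 and 18.7 times the genome mean. Another run, of 3833, 2811 and 2338 bp, lay over the shared promoter region of Pcsk7 and Rnf214 on the other side. By contrast, the H3K27ac peaks at the Tagln promoter were 1188 and 2070 bp long. With flanks of 10 kb, which leave out these neighbours, the Tagln difference was 0.28 percentage points (exact p = 0.900), and over the gene body alone it was 1.82 (exact p = 0.600). The highest pooled H3K27ac peak by fold enrichment likewise lay at another gene's promoter for Actg2 (Dguok), Myh11 (Fopnl), Cnn1 (Elof1), Mylk (Hacd2) and Lmod1 (Timm17a). It lay at the gene's own promoter for Des and Smtn, and upstream of the gene, over no promoter, for Acta2 and Synpo2. Flanking values of these loci therefore include the promoters of other genes.

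The longest H3K4me1 peaks of Mylk lay far inside the gene. Near its long start, H3K4me1 peaks were centred between −2.07 and 8.24 kb, at 4.69 to 8.27 times the genome mean, and outside the 1 kb window. The replicate lists held 6, 5 and 12 intragenic H3K27ac peaks and 18, 16 and 13 intragenic H3K4me1 peaks. The most extended H3K4me1 peak, of 5128 bp in replicate 2 and 5861 bp in replicate 3, was centred at −34.4 and −34.0 kb from the telokin start, at 12.1 and 12.0 times the genome mean. In replicate 1 the same stretch was split into peaks of 1089 and 2988 bp. H3K27ac was called inside it in all 3 replicates, at chr16:34958830-34959957 in replicate 1, chr16:34962075-34962555 in replicate 2 and chr16:34958404-34959200 among others in replicate 3. Of the Mylk sequence with H3K27ac in at least 2 of 3 lists, 94.7% also had H3K4me1 in at least 2 of 3, and of that with H3K4me1 13.7% also had H3K27ac.

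Sequence that had both marks, each in at least 2 of 3 lists, was found at all 10 loci, in 61 regions that summed to 44705 bp. Of these regions 7 lay at promoters, 30 were intragenic and 24 flanking, and 5 of the flanking ones lay over another gene's promoter. Of the intragenic ones, 28 touched no exon of the gene. Synpo2 held 27 of the 61, with 28915 bp, and Mylk held 10. Myh11 had 13 bp only, at the edge of its locus over the Fopnl promoter. Over the 10 loci, 58.8% of the H3K27ac sequence also had H3K4me1, beside 56.8% in the genome, and 38.4% of the H3K4me1 sequence also had H3K27ac, beside 35.8%. These sums lay close to the genome's shares, but rest largely on Synpo2. By locus, the H3K27ac sequence that also had H3K4me1 was 94.7% at Mylk and 78.3% at Synpo2. At each other locus it lay below the genome's share, from 2.73% at Myh11 to 53.5% at Smtn. The H3K4me1 sequence that also had H3K27ac ran from 0.740% at Myh11 to 88.5% at Tagln.

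Upstream of Acta2, both marks formed a run of regions that was present in every list. H3K27ac peaks of 3843, 2738 and 3565 bp were centred at −10.4, −11.0 and −9.83 kb from the start in replicates 1 to 3, at 6.57, 7.29 and 6.94 times the genome mean. H3K4me1 peaks there, of 1804, 1305 and 3383 bp, stood at 7.99, 6.53 and 6.75 times the genome mean. The largest region with both marks, chr19:34264853-34266656, was 1804 bp long and overlapped no annotated promoter of a coding gene. A smaller one of 797 bp lay downstream of the gene at chr19:34233453-34234249.

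At Synpo2, a flanking region centred at −9.01 kb from the 5′ start, chr3:123243718-123246593, had both marks over 2876 bp. H3K27ac stood there at 8.89, 7.64 and 8.17 times the genome mean and H3K4me1 at 8.45, 8.58 and 8.92. Inside the gene, the region chr3:123204079-123207774 had both marks over 3696 bp, the longest of the 61. Its H3K27ac peaks stood at 6.80, 8.62 and 8.40 times the genome mean and its H3K4me1 peaks at 10.4, 10.8 and 9.66.

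The remaining loci held fewer repeated peaks. At Smtn, a flanking peak, centred between −2.11 and −2.77 kb from the start, was called in all 6 lists, at 9.84, 9.15 and 12.0 times the genome mean for H3K27ac and 10.5, 10.3 and 11.3 for H3K4me1. At Des, H3K4me1 was called downstream of the gene in all 3 replicates, at 10.6, 10.6 and 11.7 times the genome mean, and H3K27ac was called over the promoter of the neighbour Speg at 9.27, 12.0 and 9.77. H3K4me1 was also called at the Speg site in replicate 3, at 10.3, and in the pooled list, at 8.40. Counting only sequence marked in at least 2 of 3 lists, the marks at Des lay largely apart, and 231 bp had both.

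At Lmod1, an intronic H3K4me1 peak was called in all 3 replicates, at 11.2, 10.8 and 11.2 times the genome mean. H3K27ac was called there in replicates 1 and 2, at 9.99 and 9.38. The 3′ end of Lmod1 had H3K27ac in all 3 replicates, at 9.65, 11.0 and 15.6 times the genome mean. H3K4me1 was called there in replicate 1, at 10.1, and in the pooled list, at 8.01. Both Lmod1 sites were higher than its promoter peaks. At a site upstream of Cnn1, centred at −3.05 and −2.92 kb from the start in H3K27ac and −2.33 and −3.01 kb in H3K4me1, H3K27ac was called in replicates 1 and 2, at 10.1 and 6.93 times the genome mean, and H3K4me1 in the same replicates, at 6.45 and 6.35. Replicate 3 of each mark had no peak at that site. Farther upstream, the promoter of Ecsit had peaks in all 6 lists, at 13.7, 15.9 and 14.1 times the genome mean for H3K27ac and 15.9, 11.8 and 11.8 for H3K4me1.

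Within the genes, Myh11 and Actg2 had few repeated peaks. Upstream of Myh11, between −6.024 and −4.511 kb from the start, H3K4me1 peaks were called in all 3 replicates, at 5.79, 6.26 and 5.78 times the genome mean. Nearer the start, but outside its 1 kb window, higher H3K4me1 peaks were called in replicates 1 and 2, at 10.3 and 9.79. Replicate 3 had no peak there. A single intronic place was called in H3K4me1 replicates 1 and 2, at 8.31 and 6.80, and in H3K27ac replicate 2, at 6.09. Over the Actg2 gene body, H3K27ac covered a mean of 0.556% and H3K4me1 0% in all 3 lists. Apart from the 390 bp H3K27ac peak over its internal starts, the replicate peaks of the Actg2 locus lay beyond its 3′ end. The 3 regions with both marks there were 912 bp long, over the promoter of Dguok, 263 bp and 44 bp. The locus as a whole was covered to 4.88% ± 1.43 for H3K27ac and 5.47% ± 0.549 for H3K4me1 (SD, n = 3), at percentiles 50.9 and 58.4 of all genes.

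The regions with both marks were then searched for the CArG box, on both strands, in the 7 loci whose promoters are in the RefSeq promoter table (GRCm38.p6), which are those of Acta2, Cnn1, Des, Smtn, Mylk, Lmod1 and Synpo2. The regions of Actg2, Myh11 and Tagln were not searched. Of the 53 regions of the 7 loci, 5 held a box, 6 boxes in all. The centre 300 bases of a region of at least 300 bases held one in 1 of 36 cases (2.78%), beside 1.94% of 34015 regions of that kind, with both marks, in the genome. The same windows held the AP-1 site TGANTCA in 13.9%, beside 12.7%, and the TEAD site GGAATG in 22.2%, beside 16.4%. The boxes are shown because they lie in sequence with both marks, with the box in capitals and 45 bases on either side.
Acta2 downstream region (chr19:34233549-34233648, plus strand): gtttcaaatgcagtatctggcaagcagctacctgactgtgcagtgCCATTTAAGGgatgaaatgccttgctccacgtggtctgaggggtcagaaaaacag
Acta2 upstream region (chr19:34265789-34265888, plus strand): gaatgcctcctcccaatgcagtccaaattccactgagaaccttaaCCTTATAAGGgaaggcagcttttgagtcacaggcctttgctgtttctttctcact
Smtn intron (chr11:3535786-3535885, plus strand): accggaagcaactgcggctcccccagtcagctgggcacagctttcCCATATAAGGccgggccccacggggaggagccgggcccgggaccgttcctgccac
Synpo2 intron a (chr3:123177021-123177120, plus strand): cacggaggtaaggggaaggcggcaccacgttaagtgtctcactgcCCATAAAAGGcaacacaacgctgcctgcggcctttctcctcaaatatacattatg
Synpo2 intron b (chr3:123204586-123204685, plus strand): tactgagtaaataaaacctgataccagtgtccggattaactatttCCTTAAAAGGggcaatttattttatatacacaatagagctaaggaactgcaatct
Synpo2 intron c (chr3:123204821-123204920, plus strand): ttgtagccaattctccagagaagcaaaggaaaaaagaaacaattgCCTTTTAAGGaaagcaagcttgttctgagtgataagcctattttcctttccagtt

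The Acta2 boxes lay in the run of regions upstream of the gene and in the region downstream of it. The Smtn box lay in an intron, in the region of 1005 bp with both marks that was centred 1.31 kb inside the nearest start. The 3 Synpo2 boxes lay in introns, and b and c shared the 3696 bp region. These are matches of letters and not measured binding sites.

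In the 250 bases upstream of the RefSeq start, 0 of the 7 genes held a full CArG box, beside 1.47% of 32851 promoters. The promoters of Actg2, Myh11 and Tagln were not searched, so this count does not speak of them. A CArG-like box, in which 1 base of the core is C or G, was found at Acta2 only, beside 7.24% of promoters. Acta2 held 2, whose first bases lay 84 and 34 bases upstream of the RefSeq start. They are shown as 30 bases each with the box in capitals, and lie inside the first exon of a longer GENCODE transcript.
Acta2 promoter box a (chr19:34255438-34255467, minus strand): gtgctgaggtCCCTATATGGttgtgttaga
Acta2 promoter box b (chr19:34255388-34255417, minus strand): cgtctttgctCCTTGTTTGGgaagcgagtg

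Peaks covered both boxes in all 3 H3K27ac lists and in H3K4me1 replicates 2 and 3, while the peak of H3K4me1 replicate 1 lay upstream of them. The AP-1 site was found in the 250 bases of 1 of the 7 genes (Mylk), beside 6.75% of promoters, and the TEAD site in 4 (Acta2, Smtn, Mylk and Lmod1), beside 12.6%. The Des promoter is shown because no replicate peak of either mark lay over it, while the pooled H3K27ac peak spanned it. It held none of these sites and no box, so that no base is in capitals.
Des promoter (chr1:75360042-75360291, plus strand): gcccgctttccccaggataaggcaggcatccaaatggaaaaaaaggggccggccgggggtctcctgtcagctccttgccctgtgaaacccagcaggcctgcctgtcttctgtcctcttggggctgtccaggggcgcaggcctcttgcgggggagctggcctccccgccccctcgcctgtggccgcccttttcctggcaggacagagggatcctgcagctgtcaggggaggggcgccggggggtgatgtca

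Other genes of the contractile machinery were read in the same way. Of 27 further genes of the apparatus, such as the regulatory light chains, tropomyosins and actin crosslinkers, 23 had H3K27ac promoter peaks in all 3 replicates, 15 had H3K4me1 peaks in all 3, and 13 had both. Srf and the myocardin relatives Mrtfa and Mrtfb were among these 13, and Myocd, which encodes myocardin, had a promoter peak of each mark in 1 of 3 replicates. Of 11 non-muscle relatives of the 10 genes, such as cytoplasmic actins and non-muscle myosins, 9 had H3K27ac in all 3 replicates and 5 (Myh10, Cnn2, Cnn3, Vim and Synpo) had both marks. Of 18 striated muscle relatives, 15 had no promoter peak in any replicate list, 1 (Mylpf) had H3K27ac in all 3, 1 (Mylk3) had H3K4me1 in all 3, and 0 had both. The median share of a locus covered was 6.54% for H3K27ac and 6.01% for H3K4me1 over the 10 genes, and 13.2% and 16.7% over the 27. No difference between these lists was tested.

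**Figure D4:**
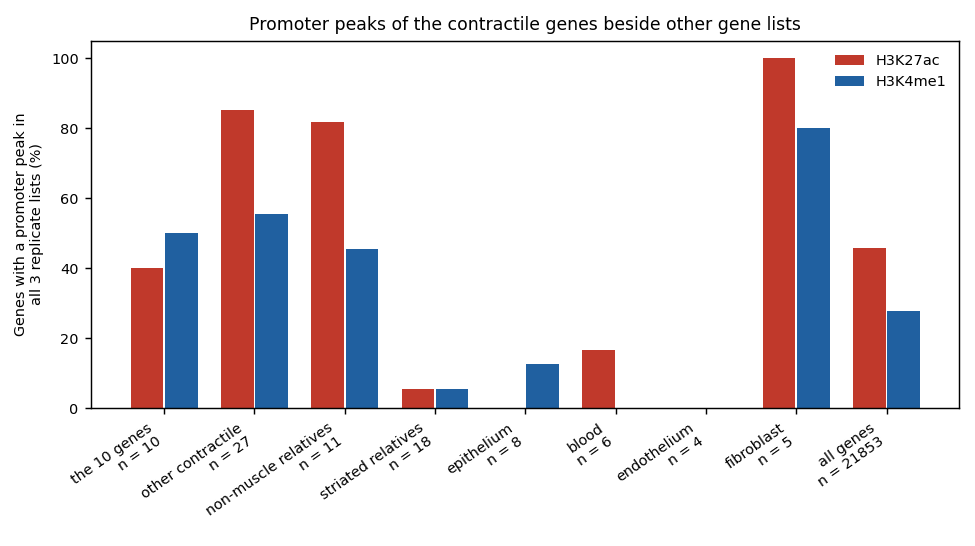
Percent of the genes of each list whose promoter had a peak in each of the 3 lists of H3K27ac (red) or H3K4me1 (blue), with the number of genes under each list and all protein-coding genes at the right. The 10 contractile genes (4 and 5 genes) sit below the other contractile genes (23 and 15 of 27) and above the striated relatives (1 and 1 of 18).

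Markers of other cells were then examined. All 5 fibroblast markers (Pdgfra, Dcn, Lum, Col1a1 and Col3a1) had H3K27ac promoter peaks in all 3 replicates and the 4 other than Pdgfra had both marks, with a median covered share of 32.9% for H3K27ac and 35.7% for H3K4me1. Of 8 epithelial markers, 0 had H3K27ac and 1 (Krt8) had H3K4me1 in all 3 replicates, and Epcam and Pax8 had no promoter peak in any replicate list. Of 6 blood markers, 5 (Csf1r, Cd3e, Cd79a, Itgam and C1qa) had no promoter peak in any replicate list, and Ptprc had H3K27ac in all 3. Of 4 endothelial markers (Pecam1, Cdh5, Kdr and Tek) 0 had either mark in all 3 replicates, although the pooled lists held promoter peaks of both marks at all 4. At the median, the fibroblast loci were thus more widely covered than those of the contractile genes. Their part in the results was not tested. In a bulk sample, fewer cells with a mark and less of the mark per cell cannot be told apart.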

How the data were processed

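Peak lists of H3K27ac and H3K4me1 (3 replicate lists and 1 pooled list each) were analysed. The 3 IgG samples entered only as controls. Per the labels, reads were trimmed with cutadapt, aligned to GRCm38.p5 with Bowtie2 and used for MACS2 calls. Per the file headers, the authors kept unique fragments without duplicates and ran MACS 2.2.7.1 on paired ends with broad regions, at p-value cutoffs of 0.05 (strong) and 0.1 (weak). The deposited pileup is a coverage signal scaled down to the IgG depth. It was divided by the mean pileup expected from the IgG fragments, the fragment length and the effective genome size. The deposited fold enrichment is a ratio over the local background, and the deposited p-values are on the −log10 scale. The deposited q-values were not used, because per the file headers they were not to be calculated.

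IgG replicate 1 was the control of H3K27ac replicate 1 only, IgG replicate 2 that of H3K27ac replicate 2 and of H3K4me1 replicates 1 and 2, and IgG replicate 3 that of replicate 3 of each mark. The shared controls and their low depth limit how independent and how fine the calls are.

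Genes and starts were those of GENCODE M21. Peak ends were checked against the chromosome lengths of GRCm38.p6, whose chromosome coordinates are those of GRCm38.p5. A peak overlapped a window by at least 1 bp. Lists, not peaks, were the replicates. The test was an exact permutation test, two-sided. RefSeq promoter sequences of 7 of the 10 genes were matched by symbol and checked against the genome. Tests used Python 3.11.15, numpy 2.4.6, pandas 2.3.3, scipy 1.17.1, pysam 0.24.0 and matplotlib 3.10.9, and interval and motif functions were tested on simulated data. The 10 genes and the gene lists were chosen with earlier results of these data known, and the CArG-like box was added after the sequences were seen. All 10 genes are named. Other genes are named where a count of 5 or fewer is given or where their promoter lies in a locus. Alternatives were other windows, starts, overlaps, flanks, p-value and pileup filters, pooled lists, leaving out each replicate, a replicate block and lists with the same IgG library.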

Additional observations from a re-analysis of the deposited data

How the results depend on the processing

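Of 39 alternatives for the counts of genes with promoter peaks, 32 gave a count within 1.5 times the reported one. Where peaks needed −log10 p of 1.3 or more, the counts were 1 for H3K27ac, 0 for H3K4me1 and 0 for both marks. With a 500 bp window, 2 genes had H3K4me1 and 2 had both. With the 5′ most start alone, 3 had H3K4me1 and 2 had both. The mean covered share moved to 10.4% for H3K4me1 with flanks of 10 kb and 9.86% with 50 kb. Over the gene body alone it was 7.31% for H3K27ac and 7.96% for H3K4me1. With the p-value filter it was 4.05% and 3.13%, in the pooled lists 11.7% and 15.7%, and relative to the genome 2.12 and 1.85 times. Without the Synpo2 locus, an alternative chosen after seeing the data, it was 7.27% and 6.63%. Leaving out 1 replicate gave 8.13% to 8.82% for H3K27ac and 8.88% to 9.44% for H3K4me1.

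Of 150 alternatives for the difference of the marks at single loci, 129 kept the direction and 21 turned it, at 7 loci. Tagln, Mylk and Synpo2 kept it under each alternative run, but not the size, and at Tagln and Synpo2 the lists overlapped under some. Tagln fell to 0.28 (10 kb flanks, exact permutation p = 0.900) and 1.82 (gene body, exact p = 0.600), and was 4.23 with 50 kb flanks and 5.95 in the pooled lists. Mylk was −3.10 with the p-value filter and −9.14 in the pooled lists, and Synpo2 was −18.02 in the pooled lists. Relative to the genome share, Synpo2 was −1.33 (exact p = 0.300), with overlap. In percentage points of H3K27ac minus H3K4me1, Acta2 turned to −4.20 (50 kb flanks), −1.35 (p-value filter), −3.62 (pooled lists) and −0.17 (same IgG library). Actg2 turned to 1.54 (10 kb flanks), 0.56 (gene body), 2.28 (p-value filter), and 0.14 times the genome share, and without 1 replicate ran from −1.38 to 0.02, the latter without H3K27ac replicate 2. Myh11 turned to 0.30 (gene body) and 0.22 (p-value filter), Cnn1 to −0.30 (10 kb flanks) and −2.47 (gene body), Des to 8.02 (gene body), and Smtn to −3.50 (pooled lists) and −0.13 (same IgG library). Lmod1 turned to 1.39 (50 kb flanks), 0.19 times the genome share, 2.00 (p-value filter) and 0.27 (same IgG library), and without 1 replicate ran from −2.05 to 2.34, the latter without H3K4me1 replicate 1. The cause was not tested.

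Replicate numbers mark no shared animal in the labels. With the replicate block, the exact permutation p over 8 sign patterns (3 pairs) was 0.25 at Synpo2, Mylk and Tagln, the smallest it allows, for the same differences of −11.14, −5.62 and 9.69 percentage points. The low IgG depth limits every call, and presence or absence of a peak in 1 list is not a measure of the amount of a mark.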
